A study of Mus musculus with 6 samples.

Results

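The genes described here are the Notch receptors Notch1, Notch2 and Notch3, the nuclear complex genes Rbpj, Maml1 and Maml2, and the target genes Hes1 and Dtx1, measured in stage 0 iNKT cells sorted from SKG mice and from BALB/c controls. These 8 genes were taken by name from a table of 48397 genes, and all 8 had reads in at least 1 library. Stage 0 iNKT cells are the earliest thymic precursors of invariant NKT cells after positive selection, and were sorted as cells that bind the PBS57-CD1d tetramer and are CD24+, CD69+, CD44-, CD8- and low or negative for CD4. SKG mice carry a hypomorphic mutation of Zap70, a kinase of T cell receptor signalling, on the BALB/c background, and the mice of both genotypes were 8 to 10 weeks old and received no treatment named in the labels. Each genotype had 3 libraries, and each library came from about 1000 cells of 3 pooled mice, so a replicate is a pool. In such bulk samples, fewer cells that express a gene and less RNA of that gene per cell cannot be told apart.

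Notch receptors are cleaved after they bind a Delta or Jagged ligand on a neighbouring cell, and the released intracellular domain enters the nucleus. There it binds the DNA-binding protein RBPJ and recruits a Mastermind-like coactivator, which turns on targets such as the Hes repressors and Deltex. In the thymus, NOTCH1 signalling commits progenitors to the T cell lineage, and target genes are turned down as thymocytes reach the double-positive stage, from which iNKT cells arise.

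RBPJ binds DNA at a short motif whose usual core is written GTGGGAA, and the windows that follow are shown because the receptors and Rbpj itself are members and because Hes5 is a textbook target whose promoter carries that motif. The promoter windows are RefSeq sequences of GRCm38.p6, searched on both strands over 250 bases before and 50 bases after a gene's start. They are printed 5′ to 3′ on the gene's strand, up to the start or the first GENCODE exon of the gene, with GTGGGAA or its core TGGGAA, in either orientation, in capitals. The window of Notch1 lies at chr2:26503825-26504072 on the minus strand, that of Notch2 at chr3:98013288-98013526 on the plus strand, that of Rbpj at chr5:53590096-53590213 on the plus strand and that of Hes5 at chr4:154960673-154960922 on the plus strand.
Notch1: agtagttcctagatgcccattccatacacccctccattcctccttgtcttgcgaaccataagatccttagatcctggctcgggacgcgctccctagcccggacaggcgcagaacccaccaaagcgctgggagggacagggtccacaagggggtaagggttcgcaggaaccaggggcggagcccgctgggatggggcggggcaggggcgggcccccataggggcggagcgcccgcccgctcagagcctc
Notch2: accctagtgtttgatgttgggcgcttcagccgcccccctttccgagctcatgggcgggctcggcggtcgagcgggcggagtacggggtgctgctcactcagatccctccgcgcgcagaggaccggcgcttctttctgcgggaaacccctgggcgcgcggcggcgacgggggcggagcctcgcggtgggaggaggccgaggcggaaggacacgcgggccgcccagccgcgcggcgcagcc
Rbpj: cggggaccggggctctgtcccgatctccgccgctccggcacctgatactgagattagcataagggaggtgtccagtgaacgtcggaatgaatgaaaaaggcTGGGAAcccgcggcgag
Hes5: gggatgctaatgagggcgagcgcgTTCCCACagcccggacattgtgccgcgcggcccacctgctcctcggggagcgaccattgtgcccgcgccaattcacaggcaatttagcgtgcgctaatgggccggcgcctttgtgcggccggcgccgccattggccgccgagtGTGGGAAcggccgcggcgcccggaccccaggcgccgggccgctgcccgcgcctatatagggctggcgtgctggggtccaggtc
Windows were found for 7 members, in 9 windows in all, and Hes1 had no entry. GTGGGAA, or its reverse complement TTCCCAC, matched 0 of these 9 windows, beside 6.38% of 32851 promoter windows of all genes. The shorter TGGGAA, which every GTGGGAA match also holds, matched 3 of the 9 windows, those of Rbpj and Maml2, beside 25.6% of all windows. Of the other Notch pathway genes, 8 of 57 windows (14.0%) held GTGGGAA, and Hes5 held it at 83 bases before its start and, in the opposite orientation, at 226 bases before. A match is a string of letters and does not show that RBPJ was bound there.

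The libraries held between 37176544 and 43115544 reads on genes, and between 10835 and 14791 genes with at least 10 reads. The 6 markers of stage 0 iNKT cells summed to 4695 to 5354 CPM in BALB/c and 4737 to 5294 CPM in SKG, and all 6 had at least 271 reads in every library. The sum was led by Slamf6, and its members did not all behave alike. Cd69 (312 to 391 CPM in BALB/c against 152 to 250 CPM in SKG) and Egr2 (1097 to 1547 CPM against 493 to 956 CPM) were lower in every SKG library, Slamf6 (2450 to 2877 CPM against 2962 to 3631 CPM) was higher in every SKG library, and Cd24a ranged from 7.31 to 90.7 CPM. CPM are reads of a gene per 1000000 reads on genes, after TMM scaling of the libraries. The summed CPM of 7 lists of markers of other cells overlapped between the genotypes. BALB/c replicate 1 had the highest double-positive thymocyte sum (316 CPM, beside 47.2 to 156 in the others) and the highest erythroid sum (69.7 CPM, beside at most 1.57). Of the 7 thymic epithelium markers, Foxn1, Dll4, Krt5 and Psmb11 stayed under 10 reads everywhere, while Epcam had 389 to 3141 reads in every library and Ccl25 had 176 to 814 reads in 5 of the 6. The mutation of SKG mice changes the Zap70 protein, so its read count does not check the labels.

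Of the 5 members that passed edgeR's filter on low counts, Notch1 had the smallest p, with higher levels in every SKG library than in any BALB/c library. Notch2 and Maml1 went the other way, with higher levels in every BALB/c library. Dtx1 had reads in SKG libraries only, in 2 of the 3, and Notch3 had most of its reads in 1 SKG library. Rbpj and Maml2 overlapped between the genotypes, and Hes1 was close to 0 in every library. A call needed both an FDR (Benjamini-Hochberg) under 0.1 and a 1.5-fold change or more in edgeR's quasi-likelihood test, which made this call for 0 of 12312 tested genes (0%) and so 0 of the 5 tested members. Notch3, Hes1 and Dtx1 did not pass the filter. At an unadjusted p under 0.05 stood 1 of the 5 tested members, Notch1, which was higher in SKG. Of all tested genes 5.45% had such a p, 3.07% with higher levels in SKG and 2.38% with higher levels in BALB/c. The genotypes did not overlap for 3 of the 5, beside 13.9% of all tested genes, with Notch1 higher in SKG (6.77% of all) and Notch2 and Maml1 higher in BALB/c (7.12% of all). The median log2 fold change of the 5 tested members, SKG over BALB/c, was -0.18, and that of all 12312 genes was -0.02.

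**Figure D1:**
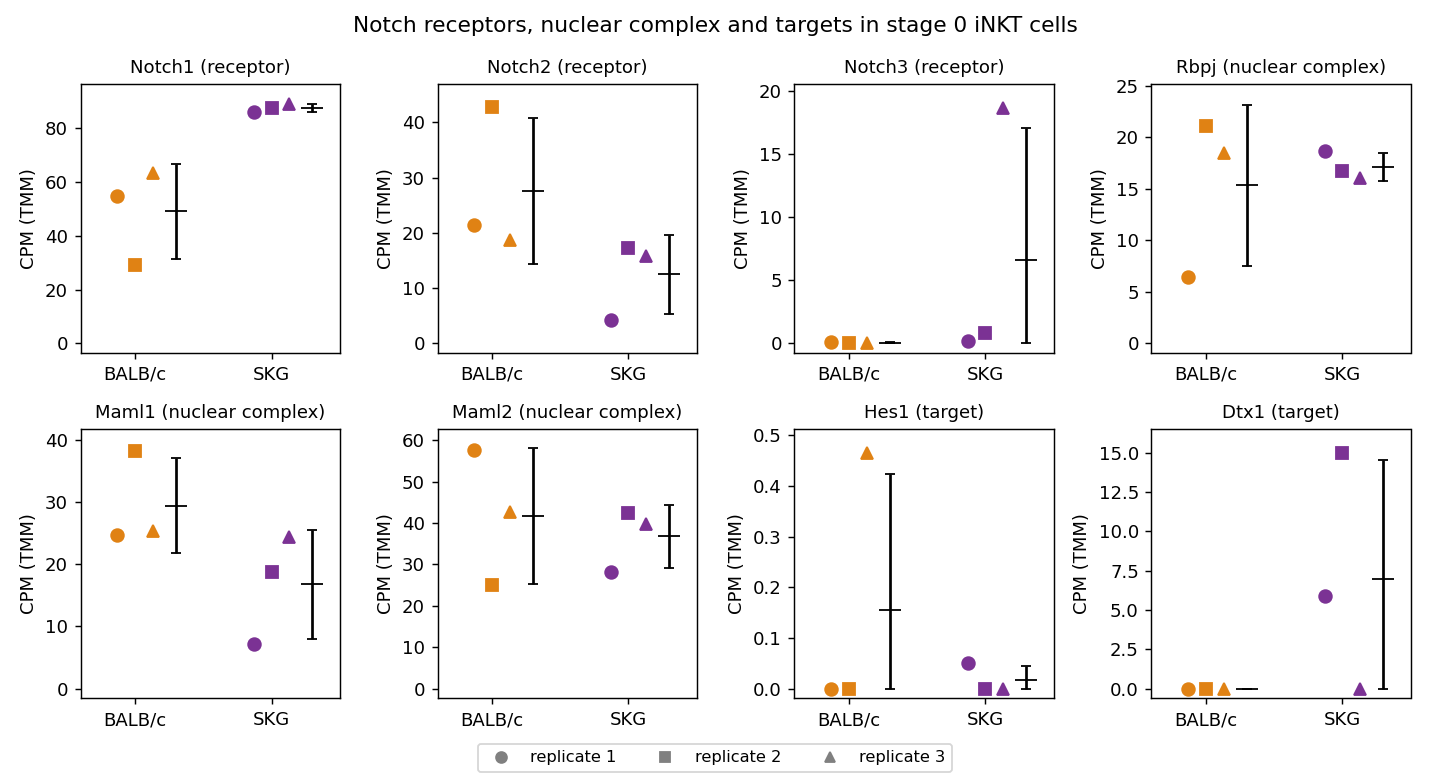
TMM-normalized CPM (y axis, linear, a separate scale per gene) of the 8 members in each library of BALB/c (orange) and SKG (purple) stage 0 iNKT cells, with the mean (horizontal bar) and SD of 3 libraries, the lower arm cut at 0. Notch1 lies higher in all 3 SKG libraries, Notch2 and Maml1 lie higher in all 3 BALB/c libraries, and Dtx1 and Notch3 rest on 2 and 1 SKG libraries.

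Notch1 encodes the receptor that drives T lineage commitment and lies on the minus strand at chr2:26457903-26516663 (GRCm38, as for all positions here). It was counted with 2257, 1078 and 2855 reads in BALB/c replicates 1 to 3 and with 3467, 3400 and 3213 reads in SKG replicates 1 to 3. This came to 54.7, 29.1 and 63.2 CPM in BALB/c and 86.0, 87.5 and 88.8 CPM in SKG. The SKG libraries lay within a narrow band and the BALB/c libraries were spread below it, with replicate 2 the lowest. Mean levels were 49.0 ± 17.8 CPM (SD, n = 3) in BALB/c and 87.5 ± 1.40 CPM (SD, n = 3) in SKG, a 1.78-fold difference. The edgeR log2 fold change was 0.84 (SE 0.34), with an unadjusted p of 0.0444 and an adjusted p of 0.895 over all genes, and a two-sided exact permutation test gave p = 0.1, the smallest that 3 libraries against 3 can give. Without BALB/c replicate 2 it was 0.56, and without BALB/c replicate 3 it was 1.07, so the size depends on which BALB/c pools enter. With library sizes alone in place of TMM, the edgeR p was 0.0597. With single libraries left out, the edgeR p ranged from 0.0353 (BALB/c replicate 3) to 0.0945 (SKG replicate 1). Of these runs, only that without BALB/c replicate 3 had a p under 0.05. Of the exon bases of Notch1, 9.76% overlap exons of 0610009E02Rik or Gm13568, whose reads cannot be separated in counts made without regard to strand.

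Notch2, a receptor best known in lymphocytes for marginal zone B cell development, lies on the plus strand at chr3:98013527-98150361. BALB/c libraries had 882, 1588 and 844 of its reads, or 21.4, 42.8 and 18.7 CPM. SKG libraries had 170, 674 and 574, or 4.22, 17.3 and 15.9 CPM. The closest pair, BALB/c replicate 3 and SKG replicate 2, differed little, and the extremes were BALB/c replicate 2 and SKG replicate 1. The means were 27.6 ± 13.2 CPM (SD, n = 3) in BALB/c and 12.5 ± 7.19 CPM (SD, n = 3) in SKG, with a log2 fold change of -1.15 (SE 0.74) and an adjusted p of 0.982 in edgeR. Leaving out single libraries moved this value between -1.46 and -0.69.

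Reads of Notch1 and Notch2 can be set against each other within a library, which removes the library's size from the comparison. Notch1 took 71.9% of the reads of both genes in BALB/c replicate 1 (exact Clopper-Pearson 95% interval 70.3% to 73.5%), 40.4% in replicate 2 (38.6% to 42.3%) and 77.2% in replicate 3 (75.8% to 78.5%). In SKG it took 95.3% (94.6% to 96.0%), 83.5% (82.3% to 84.6%) and 84.8% (83.7% to 86.0%). Every SKG share was above every BALB/c share, and the intervals, which cover counting error only, were narrow beside the spread between the BALB/c pools. This ratio was chosen after the levels of both genes had been seen and is given without a test. Per kilobase of exon, Notch1 exceeded Notch2 by 1.94, 0.514 and 2.56 times in BALB/c and by 15.5, 3.82 and 4.24 times in SKG, so that Notch2 led in BALB/c replicate 2 alone.

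**Figure D2:**
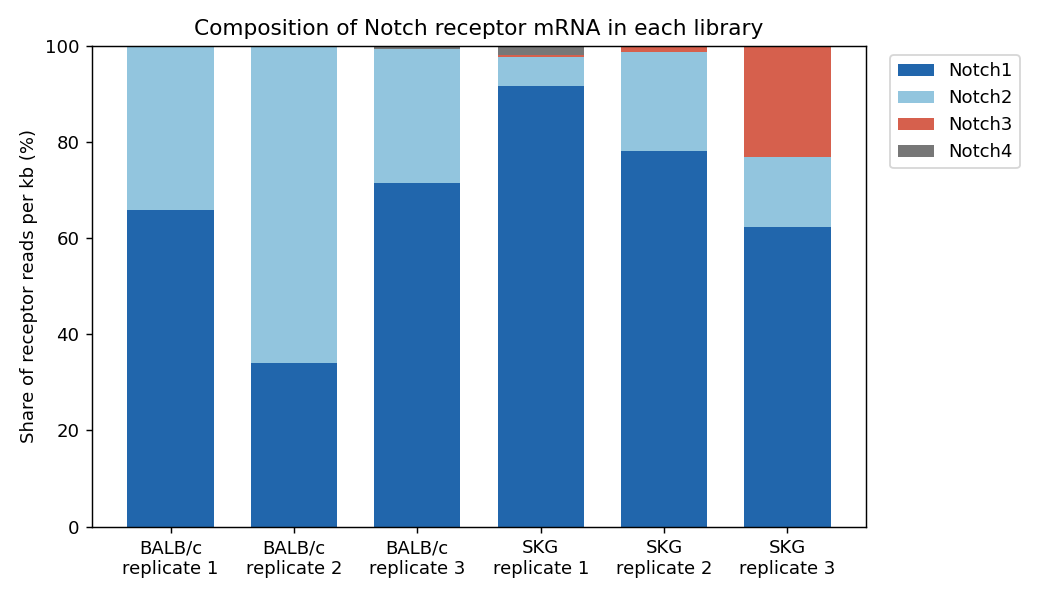
Share of each Notch receptor gene (y axis, percent) among the reads per kilobase of exon of Notch1 to Notch4 in each library (x axis). Notch2 takes between 27.9% and 66.0% of the BALB/c bars and between 5.94% and 20.5% of the SKG bars, while the Notch1 shares of the genotypes overlap because Notch3 takes 23.0% of SKG replicate 3.

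Notch3, a receptor expressed in immature thymocytes and in mural cells of vessels, lies on the minus strand at chr17:32120820-32166852. The BALB/c libraries gave 6, 0 and 1 reads, and the SKG libraries gave 8, 33 and 675. The genotypes did not overlap, but BALB/c replicate 1 and SKG replicate 1 were 2 reads apart, and SKG replicate 3 held nearly all reads. In CPM the SKG libraries had 0.199, 0.849 and 18.7, and the largest BALB/c value was 0.145 (two-sided exact permutation test, p = 0.1). A level of at least 500 reads in 1 library beside under 50 in each of the other 5 was found for 96 of 9482 genes (1.01%). Notch3 itself has this pattern, so the share is background and not a test of Notch3. In SKG replicate 3, Pdgfrb, a marker of mural cells, also had its highest count, 1016 reads, beside 32, 2 and 294 in BALB/c and 1 in each other SKG library. Of the other endothelial and stromal markers, Cdh5 and Col3a1 stayed under 10 reads everywhere, Col1a1 was at 299 reads in this library and 289 in SKG replicate 2 beside 0 to 39 in the other 4, and Pecam1 had 3879 to 7542 reads in every library. The same library had the highest summed CPM of the early T progenitor list (34.7, beside 0.0270 to 10.5 in the others), all of it from Il2ra, with Kit, Flt3 and Cd34 at 0. It also had the highest sum of the myeloid list (135, beside 3.70 to 64.8), from Lyz2 and Cd68, with Csf1r, Itgam and Itgax at 0. The sums of the thymic epithelium (99.4, from Epcam and Ccl25), B cell (8.38, from Cd79b) and endothelium and stroma (189, mostly Pecam1) lists were highest there too. Those of the double-positive thymocyte and erythroid lists were not. The part of other cells in the Notch3 reads was not tested.

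Rbpj encodes the DNA-binding protein of the Notch complex and lies on the plus strand at chr5:53466152-53657362. In BALB/c its reads numbered 267, 783 and 836, which is 6.47, 21.1 and 18.5 CPM. In SKG they numbered 752, 651 and 579, which is 18.7, 16.7 and 16.0 CPM. The genotypes overlapped, and BALB/c replicate 1 was low beside the other 5 libraries. The means were 15.4 ± 7.81 CPM (SD, n = 3) in BALB/c and 17.1 ± 1.37 CPM (SD, n = 3) in SKG. The edgeR log2 fold change of 0.16 (SE 0.66, adjusted p = 0.997) turned to -0.20 without BALB/c replicate 1, the library with the highest double-positive thymocyte and erythroid sums, whose part in this value was not tested. Processed copies of Rbpj are annotated as Rbpj-ps1 and Rbpj-ps3, so its count is uncertain where reads match a copy.

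Maml1 and Maml2 encode coactivators that bridge the Notch and RBPJ complex to histone acetyltransferases. Maml1, on the minus strand at chr11:50255634-50292311, gave 1016, 1419 and 1145 reads in the BALB/c pools against 289, 728 and 882 in the SKG pools. Its levels were 24.6, 38.3 and 25.4 CPM in BALB/c and 7.17, 18.7 and 24.4 CPM in SKG, so the lowest BALB/c and the highest SKG library nearly met, at a distance of 0.244 CPM. The means were 29.4 ± 7.67 CPM (SD, n = 3) and 16.8 ± 8.77 CPM (SD, n = 3), with a log2 fold change of -0.81 (SE 0.61) and an adjusted p of 0.991 in edgeR. Leaving out SKG replicate 1 moved the value to -0.45, and leaving out SKG replicate 3 moved it to -1.17. Under DESeq2's size factor method (RLE) in place of TMM the distance shrank to 0.0168 CPM. Maml2, on the plus strand at chr9:13297957-13709388, gave 2378, 924 and 1924 reads in the BALB/c pools against 1131, 1651 and 1438 in the SKG pools. At 57.7, 24.9 and 42.6 CPM against 28.1, 42.5 and 39.8 CPM its genotypes overlapped fully, with the SKG libraries inside the BALB/c range. The means were 41.7 ± 16.4 CPM (SD, n = 3) and 36.8 ± 7.65 CPM (SD, n = 3), and the edgeR log2 fold change was -0.18 (SE 0.43, adjusted p = 0.991). It turned to 0.13 without BALB/c replicate 1, as for Rbpj.

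Hes1, a bHLH repressor and the best known Notch target of early thymocytes, lies on the plus strand at chr16:30064384-30067796. Its counts were 0, 0 and 21 reads in the BALB/c pools against 2, 0 and 0 in the SKG pools. By counting error alone, a count of 0 allows up to 3 reads, or 0.0664 to 0.0830 CPM in these libraries. Hes1 was above that limit in BALB/c replicate 3 alone, at 0.465 CPM. The limit does not cover the spread between libraries. The genotypes overlapped (two-sided exact permutation test, p = 1).

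Dtx1 encodes Deltex, a ubiquitin ligase that acts on Notch and is itself a Notch target in thymocytes, and lies on the minus strand at chr5:120680202-120711927. All 3 BALB/c libraries held 0 of its reads. The SKG libraries held 238, 583 and 0, which is 5.91, 15.0 and 0 CPM. SKG replicates 1 and 2 were well above the limit that counting error alone allows for a count of 0. SKG replicate 3 was at 0 like the BALB/c libraries (two-sided exact permutation test, p = 0.4). Among 12451 genes with at least 100 reads in a library, 7 (0.0562%) had 0 reads in all BALB/c libraries and at least 100 in 2 or more SKG libraries, and 16 (0.129%) had the mirror pattern. At least 100 reads in 1 library and 0 in another of the same genotype was common, however, at 17.1% of these genes. The pattern of 0 reads in all BALB/c libraries is that of Dtx1 itself, so its share is background and not a test of Dtx1.

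DESeq2, the tool of the study, treated these low genes otherwise than edgeR. Without shrinkage of fold changes it called 370 of 24420 genes (1.52%), among them Notch3 (adjusted p = 0.0237) and Dtx1 (adjusted p = 0.0313), both higher in SKG as were 0.725% of genes. With shrinkage it called 231 genes (0.946%, with 0.483% higher in SKG) and 0 of the 8 members, with adjusted p of 0.371 for Notch3 and 0.878 for Dtx1. Without SKG replicate 3, DESeq2 gave Notch3 an unadjusted p of 0.180 and no adjusted p, and without SKG replicate 2 it gave Dtx1 an adjusted p of 0.342. Both calls were therefore lost when the single library with most of the gene's reads was left out. The DESeq2 log2 fold change of Notch3 went from 6.89 to 3.26 without that library, whereas for Dtx1 SKG replicate 1 still held 238 reads beside 0 in every BALB/c library. In edgeR without the filter on low counts, the p was 0.0194 for Notch3 and 0.00727 for Dtx1, and both had an adjusted p of 0.645.

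Levels of different members were compared per kilobase of exon, as mean CPM per kb over all 6 libraries. Maml2 was the highest at 5.95 ± 1.78 CPM per kb (SD, n = 6), followed by Notch1 at 4.79 ± 1.68 and Maml1 at 4.18 ± 1.83. Notch2 at 1.86 ± 1.17 and Rbpj at 1.27 ± 0.401 came next, and Dtx1 (0.661 ± 1.16), Notch3 (0.410 ± 0.931) and Hes1 (0.0421 ± 0.0917) were lowest. Between neighbours in this order, only the step from Maml1 to Notch2, of 2.32 CPM per kb, was larger than the SD of both. Members further apart could be separated, since every library of Notch2 (at least 0.391 CPM per kb) and of Rbpj (at least 0.508) was above the highest library of Hes1 (0.228). The order of the upper 3 means differed by genotype. In BALB/c it was Maml2 (6.32 ± 2.48 CPM per kb, SD, n = 3), Maml1 (5.32 ± 1.39) and Notch1 (3.44 ± 1.25). In SKG it was Notch1 (6.14 ± 0.0983), Maml2 (5.57 ± 1.16) and Maml1 (3.03 ± 1.59). The leading means, Maml2 and Maml1 in BALB/c and Notch1 and Maml2 in SKG, were closer than the larger SD of each pair. In BALB/c replicate 2, Maml1 (6.92 CPM per kb) was above Maml2 (3.78), so the order did not hold in every library. The summed CPM per kb of the 4 receptor genes was 5.85, 6.01 and 6.22 in BALB/c and 6.59, 7.86 and 10.0 in SKG.

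The 3 tested genes whose levels followed Notch1 most closely over the 6 libraries, by Pearson's r of log2(CPM + 1), were Gm28529 (r = 0.992), Gm15832 (r = 0.991) and Pola1 (r = 0.991). Pola1, the catalytic subunit of DNA polymerase alpha, had 10.2, 1.75 and 19.4 CPM in BALB/c and 42.4, 31.7 and 46.2 CPM in SKG. Of 12311 other tested genes, 44 (0.357%) reached an r of 0.95. The tested members had r of -0.748 (Notch2), -0.665 (Maml1), -0.0265 (Rbpj) and 0.335 (Maml2) with Notch1. These are descriptions over 6 libraries of both genotypes, so a difference between the genotypes enters each r. The edgeR log2 fold changes, SKG over BALB/c, were 1.51 for Gm28529, 2.11 for Gm15832 and 1.94 for Pola1.

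The rest of the pathway was read from a list of 58 other Notch genes, of which 40 were tested and 9 had 0 reads in all libraries. None of the 40 was called in edgeR (0% of all genes), and the lowest adjusted p was 0.328, for Myc. At an unadjusted p under 0.05 stood 4 of the 40 genes, beside 5.45% of all, with Kat2a, Ctbp1 and Tcf7 higher in SKG and Myc higher in BALB/c. DESeq2 called 3 of these with and without shrinkage (Ctbp1, Tcf7 and Myc), beside 0.946% of all genes with and 1.52% without shrinkage. The genotypes did not overlap for 8 of the 40, beside 13.9% of all tested genes, and SKG was higher for 5 of them while BALB/c was higher for 3. Estimates lay above 0 for 23 genes and below 0 for 17, with a median log2 fold change of 0.14 beside -0.02 for all genes. Tcf7 and Myc were among the genes the study itself picked from these libraries, so they are not independent of its choice.

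**Figure D3:**
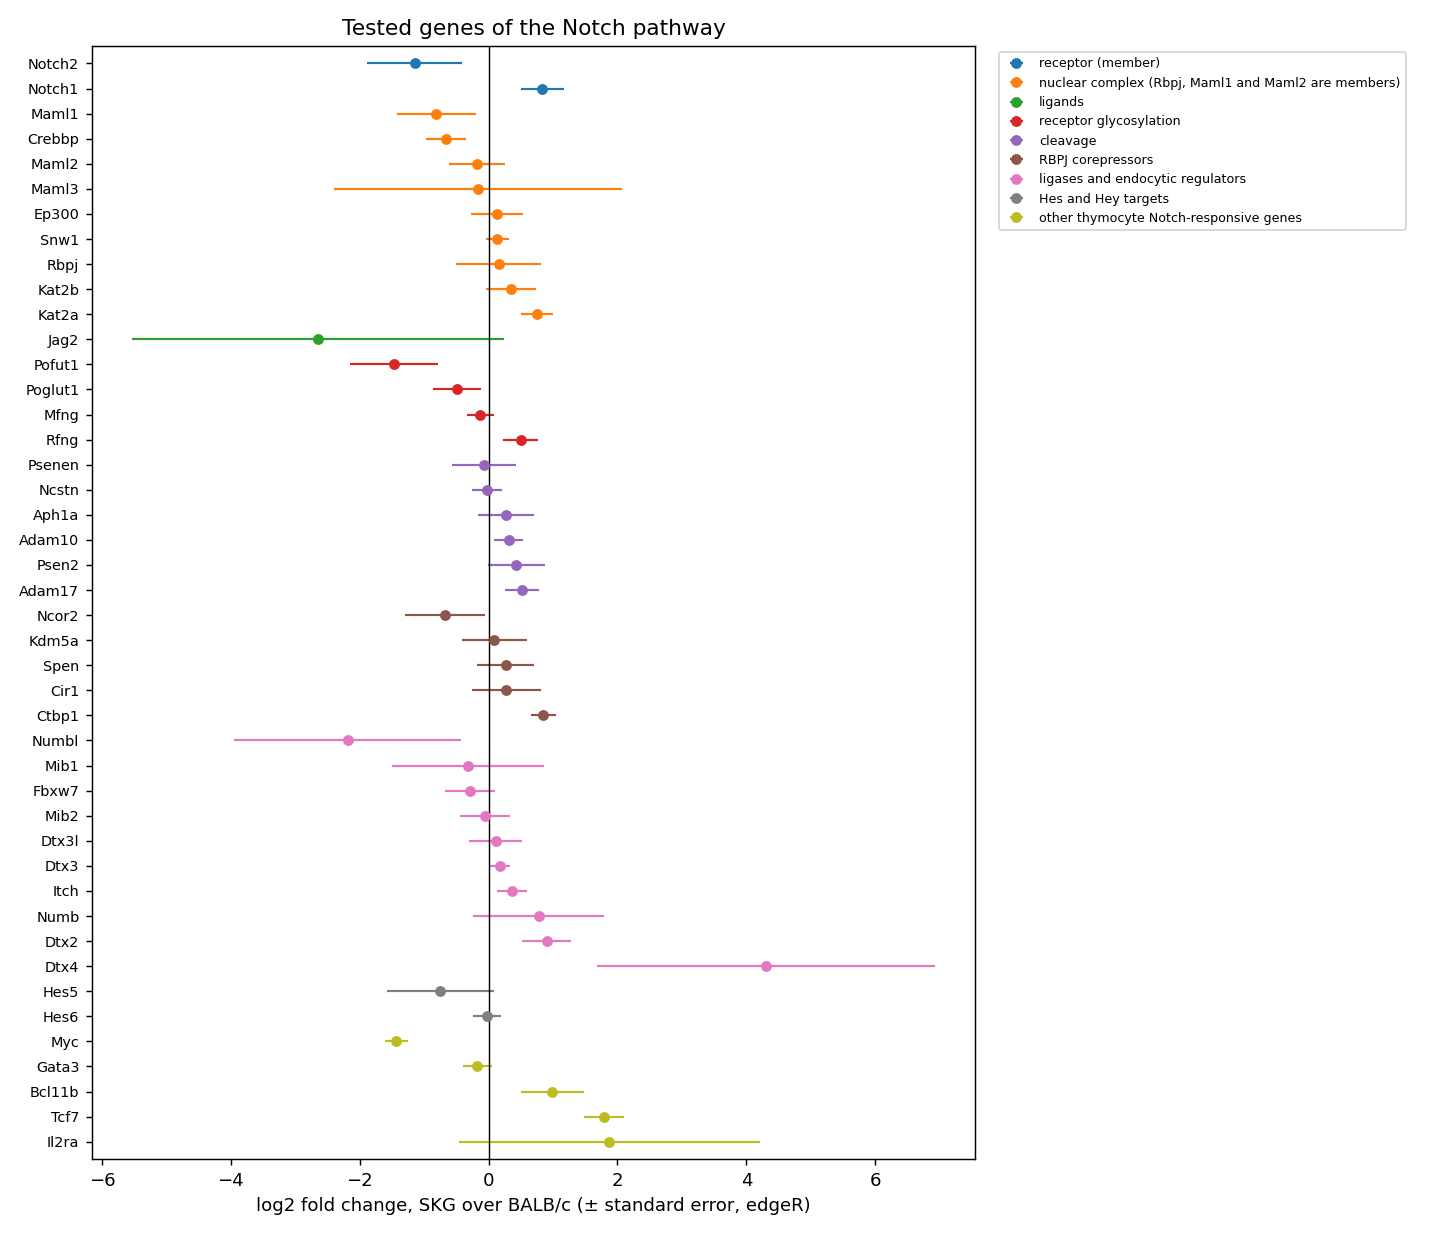
edgeR log2 fold changes, SKG over BALB/c (x axis), of the 5 tested members and 39 of the 40 tested genes of the pathway list, one gene per row and coloured by role, with bars of 1 standard error on each side. Notch1 (0.84) and Notch2 (-1.15) lie on opposite sides of 0, and the cleavage and nuclear complex genes shown lie within 1 log2 unit of it.

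Of 6 ligand genes, Dll1, Dll3 and Dll4 had 0 reads in every library. Jag2 was the only tested ligand, with 0, 992 and 259 reads in the BALB/c pools against 208, 1 and 0 in the SKG pools, so its genotypes overlapped. Jag1 had reads in 2 libraries, with 9 in the third BALB/c pool and 20 in the first SKG pool. Among the genes that glycosylate the receptors, Mfng, a Fringe enzyme that changes which ligands a receptor binds, had the highest CPM, at 110 ± 17.3 CPM (SD, n = 3) in BALB/c and 101 ± 9.66 CPM (SD, n = 3) in SKG. All 4 tested genes of this role missed the threshold, and Pofut1, which adds the fucose that Fringe enzymes extend, was higher in every BALB/c library, at 20.0 to 30.2 CPM against 3.80 to 12.5 CPM.

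Cleavage is carried out by ADAM proteases outside the membrane and by gamma-secretase within it. Adam17, an ADAM protease, was higher in every SKG library, at 156 to 187 CPM against 79.0 to 154 CPM in BALB/c. Of the 7 tested cleavage genes, 5 had estimates above 0 and 2 below, with a median log2 fold change of 0.27. None of the 7 was called.

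In the nuclear complex outside the members, Kat2a, a histone acetyltransferase, was at 71.1, 91.7 and 124 CPM in BALB/c and 171, 169 and 142 CPM in SKG (edgeR log2 fold change 0.75, SE 0.25, adjusted p = 0.833). Crebbp, of the same role, went the other way and was higher in every BALB/c library. It was at 131, 77.8 and 71.7 CPM in BALB/c and 51.2, 63.5 and 62.9 CPM in SKG (edgeR log2 fold change -0.66, SE 0.31, adjusted p = 0.952). Snw1, which bridges RBPJ to its partners, had the highest CPM of this role, not corrected for length. Its genotypes overlapped, at 125 to 157 CPM in BALB/c and 137 to 171 CPM in SKG, and 44.2% of its exon bases overlap exons of Slirp. Maml3, the Mastermind-like gene that is no member, had 0.727, 5.99 and 30.4 CPM in BALB/c and 33.0, 0.0772 and 0.111 CPM in SKG. It spanned nearly the same range in both genotypes. Among the corepressors that hold RBPJ targets silent without Notch, Ctbp1 was at 181, 259 and 278 CPM in BALB/c and 412, 449 and 432 CPM in SKG. The edgeR log2 fold change of Ctbp1 was 0.85 (SE 0.19, adjusted p = 0.619), and DESeq2 gave an adjusted p of 0.0418.

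Of the ligases and endocytic regulators, 10 of 12 were tested and none had an unadjusted p under 0.05. Dtx3, a Deltex gene with the highest CPM of this role, was at 149 ± 8.85 CPM (SD, n = 3) in BALB/c and 169 ± 9.68 CPM (SD, n = 3) in SKG. Dtx4 resembled Dtx1 in that SKG replicates 1 and 2 were its highest libraries, at 3.45 and 14.4 CPM, and SKG replicate 3 had 0 reads, but BALB/c replicates 2 and 3 had 0.189 and 0.709 CPM. Nrarp, a feedback inhibitor that Notch turns on, had 0 reads in every library, but 79.4% of its exon bases overlap exons of Gm38287, where reads may not have been assigned to it, so the 0 does not show that it was absent.

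The Hes and Hey targets gave few counts apart from Hes5 and Hes6. Hes5 gave 1395, 295 and 767 reads in the BALB/c pools against 584, 620 and 165 in the SKG pools, with means of 19.6 ± 13.1 CPM (SD, n = 3) and 11.7 ± 6.20 CPM (SD, n = 3) that overlapped (log2 fold change -0.75), and 31.8% of its exon bases overlap exons of Gm20421. Hes6, which is not a classical Notch target, was at 168 ± 37.1 CPM (SD, n = 3) and 165 ± 15.2 CPM (SD, n = 3). Hey1 had 45 reads in BALB/c replicate 3 and none elsewhere, and Hes7 and Hey2 had 0 reads in every library, as did Ovol2. The study names Ovol2 with Hey1, Jag1 and Rbpj for chromatin accessibility in the mature iNKT1 and iNKT2 subsets, not in stage 0 cells. That is another measure in other cells, so these counts do not bear on it. Notch4, the remaining receptor, was counted in the same pair of libraries as Jag1, with 15 and 42 reads.

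Other genes that respond to Notch in thymocytes included Gata3, a transcription factor of T cell commitment, at 628 ± 30.4 CPM (SD, n = 3) in BALB/c and 557 ± 157 CPM (SD, n = 3) in SKG. Tcf7, which encodes TCF1, was at 359, 175 and 184 CPM in BALB/c and 732, 882 and 876 CPM in SKG, and Myc was at 426, 381 and 374 CPM in BALB/c and 143, 173 and 121 CPM in SKG. The genotypes of both genes were far apart, in opposite directions.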

How the data were processed

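RNA of 6 libraries, 3 BALB/c and 3 SKG, was read as 50 nt reads. The authors aligned them with HISAT2 2.1.0 to GRCm38 and counted reads on exons with featureCounts (Subread 1.4.4 is listed in the submitters' processing notes), ignoring strand and leaving out reads with a mapping quality under 10. The deposited values are raw counts per gene, with no normalization. A second deposited table holds the authors' DESeq2 1.14.1 comparison and was not used. The sample labels and the methods name different amplification kits, so the kit is not settled. PCR copies cannot be told from separate molecules.

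The main test was edgeR 4.0.16 in R 4.3.3 (filterByExpr, TMM, quasi-likelihood F test, Benjamini-Hochberg over 12312 genes), with limma 3.58.1 and DESeq2 1.42.0 as alternatives. Tables and figures were made in Python 3.11.15 with pandas 2.3.3, scipy 1.17.1 and matplotlib 3.10.9. Standard errors were taken as the size of the log2 fold change divided by the root of F. The common dispersion was 0.842. Replicates are pools of 3 mice. Symbols were matched to GENCODE M21 for 46394 of 48397 genes, and exon lengths are unions over transcripts. Simulated counts were also passed through the fits, but no outcome of those runs is given here. They are therefore no evidence of how the fits behave at the common dispersion of 0.842. The members, the lists and the tests were chosen with earlier results of these data known. All members were named, and of the pathway list the genes without overlap at an unadjusted p under 0.05, the highest of each role by CPM, and Hey1, Jag1 and Ovol2. Other list genes (Pofut1, Adam17, Crebbp, Maml3, Dtx4, Hes5, Nrarp) were added after their values were seen. The values of 1 pathway gene are not reported here, though it is included in the counts of its lists. Alternatives left out each library, changed the scaling, filter or tool, or added a replicate block.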

Additional observations from a re-analysis of the deposited data

How the results depend on the processing

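edgeR's 0 calls among 12312 genes became 2 without the filter on low counts, 370 in DESeq2 without and 231 with shrinkage, and 671 at an unadjusted p under 0.05. For the members, 0 calls became 2 in DESeq2 without shrinkage and 1 at an unadjusted p under 0.05, and DESeq2 with each library left out gave 1 to 3 (an alternative added after seeing the data), the third being Notch1 (adjusted p = 0.0824) without BALB/c replicate 3. For the other pathway genes, 0 became 3 in DESeq2 without and 3 with shrinkage, 4 at an unadjusted p under 0.05, and 3 to 6 in DESeq2 with each library left out. The share of all genes called in the DESeq2 runs with a library left out was not counted, so their counts have no background share. edgeR with each library left out, limma-voom and other scalings called 0 members. Estimates for Notch1, Notch2 and Maml1 kept their sign in every alternative run. Rbpj turned to -0.20 without BALB/c replicate 1 (range -0.20 to 0.44 over libraries left out). Maml2 turned to 0.13 without it (range -0.45 to 0.13), to 0.12 with library number as a block and to 0.011 without the 2 libraries with most genes detected, also added later. The cause was not tested.

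No pairing by replicate number was seen: residuals of libraries with the same title number correlated at -0.145 to -0.00962, and those with the same library number at -0.0384 and 0.00289. A shared preparation of libraries could not be tested with so few pairs. With either number as a block, 0 members were called, and the log2 fold change of Notch1 was 0.91 (title number) and 1.14 (library number, which drops BALB/c replicate 3 and SKG replicate 1 from the comparison). At this spread between libraries, low genes such as Hes1 and Notch4 cannot be compared.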

Other observations

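Detection of low Notch genes varied between libraries of the same genotype. Of 10 low genes (Hes1, Notch4, Jag1, Dlk1, Lfng, Aph1b, Aph1c, Numbl, Hey1 and Heyl), 2, 2 and 4 had at least 10 reads in BALB/c replicates 1 to 3 and 5, 1 and 0 in SKG replicates 1 to 3. The libraries with the highest numbers, BALB/c replicate 3 and SKG replicate 1, were also those with the most genes detected in the whole table, 14339 and 14791.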
